A study of Mus musculus with 12 samples.

Results

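The enzymes that make and inactivate steroid hormones were followed in liver and lung of mice at day 16 of pregnancy. The set comprised 10 genes: Cyp17a1, Hsd3b2, Hsd3b5, Hsd11b1, Hsd11b2, Hsd17b2, Hsd17b11, Srd5a1, Akr1d1 and Akr1c6. Members were the probe sets whose only gene symbol in the array's annotation was one of these names. This gave 12 probe sets of 9 genes, among 45037 probe sets and 18193 named genes in all. Srd5a1, a steroid 5α-reductase gene, had no probe set under this rule and was not analysed here.

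RNA of 2 female mice was pooled for every array. The mice were NOD/SCID, bred in house; animals of this strain are immunodeficient because mature lymphocytes are missing. The mice were 8 to 10 weeks old when the experiments began, and pregnancy was timed by vaginal plug. The 4 groups were pregnant liver at gestation day 16, virgin liver, pregnant lung at gestation day 16 and virgin lung, with 3 arrays each. All values are log2 expression values, so a difference of 1 is a doubling. The p-values set a difference between groups against the spread between pools, taken over all 4 groups. The spread between single mice was not measured. Levels of different probe sets are not comparable with each other, and only differences of 1 probe set between groups are read. Values below 4.601, the median over the mean levels of the probe sets, are called dim; signal over background was not established for them.

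Steroid hormones are made from cholesterol by a short chain of P450 enzymes and hydroxysteroid dehydrogenases, classically in adrenal cortex, gonads and placenta. Target and clearing tissues then switch the hormones on or off. In these tissues 11β-hydroxysteroid dehydrogenases interconvert corticosterone and its inactive ketone, and 17β-hydroxysteroid dehydrogenases do so for oestrogens and androgens. Reductases of the A ring take part in the clearance of steroids. Liver is the main site of this clearance, and several of its steroid enzymes differ between male and female mice.

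Markers of liver and of lung were bright in the tissue so labelled and dim in the other. The mean log2 value of 8 hepatocyte markers was 13.62 to 13.65 in pregnant liver, 13.44 to 13.53 in virgin liver, 4.052 to 4.511 in pregnant lung and 3.972 to 4.114 in virgin lung. That of 8 lung epithelium markers was 4.377 to 4.558 in pregnant and 4.469 to 4.513 in virgin liver, against 12.58 to 12.63 in pregnant and 12.62 to 12.65 in virgin lung. Markers of adrenal cortex and gonad, the classical steroid-making tissues, had a mean of 4.009 to 4.213 in pregnant liver and 4.133 to 4.184 in virgin liver. The corresponding ranges were 3.706 to 3.761 in pregnant lung and 3.756 to 3.833 in virgin lung. Of these 7 markers 0 was called in liver or lung by limma (0 also at an unadjusted p under 0.05). Array medians were 4.491 to 4.555, and arrays of a group correlated at 0.9917 to 0.9961. The poly-A spike-in controls averaged 9.86 to 10.38 on 10 arrays but 4.857 on pregnant liver pool 3 and 4.439 on virgin liver pool 3. The labels name no batch. For called genes, the liver change is also given over pools 1 and 2 alone and in pool 3 alone where these differ by more than 1.5 times.

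In liver, pregnancy moved the set in both directions. The androgen-synthesis gene Cyp17a1 was 3.91-fold higher in pregnant liver, while Hsd3b2 was 4.34-fold, Hsd17b11 1.66-fold and Hsd3b5 1.53-fold lower. Of the 12 member probe sets 1 rose, 4 fell and 7 did not pass (limma, Benjamini-Hochberg adjusted p under 0.05 over all probe sets). These 5 calls are 41.7% of the members, where 8.16% of all probe sets were called (3.7% up and 4.46% down). The set was chosen with earlier results of these data known, so this share is a description. All members but Hsd11b2 and 1443059_at had mean levels above the dim cut, which splits all probe sets at their median. With dim probe sets left out, 4146 of the rest were called in liver, against 3675 of all. The share called among brighter probe sets was thus well above 8.16%. The 5 calls cover 4 of 9 genes, where 11.1% of all genes were called at 1 probe set a gene. These limits hold for the member shares given later too. For 8 of 12 members all pregnant pools lay on one side of all virgin pools, which held for 22.6% of all probe sets. The median change was -0.16 over the members and 0.00137 over all probe sets. In bulk tissue, fewer cells of a type and less RNA per cell cannot be told apart. Of the marker lists for other cells or zones, 1 of 8 hepatocyte, 1 of 6 endothelial and 1 of 7 pericentral markers rose in liver. Of 5 periportal markers 1 fell, and of 8 pancreas markers 1 rose and 2 fell. Median liver changes were 0.138 over hepatocyte, -0.21 over endothelial, -0.229 over pericentral, -0.242 over periportal and 0.0142 over pancreas markers. Of the 7 pericentral markers 6 had an unadjusted p under 0.05 (limma), which 25.7% of all genes had. The pericentral mean was 8.68 to 8.921 in pregnant and 8.92 to 8.956 in virgin liver. The periportal mean was 10.18 to 10.3 in pregnant and 10.45 to 10.62 in virgin liver. The endothelial mean was 6.416 to 6.715 in pregnant and 6.241 to 6.372 in virgin liver, higher in pregnancy although the median change was negative. No lung epithelium (8) or placental (7) marker was called there, and the part of any of these in the results was not tested.

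**Figure D1:**
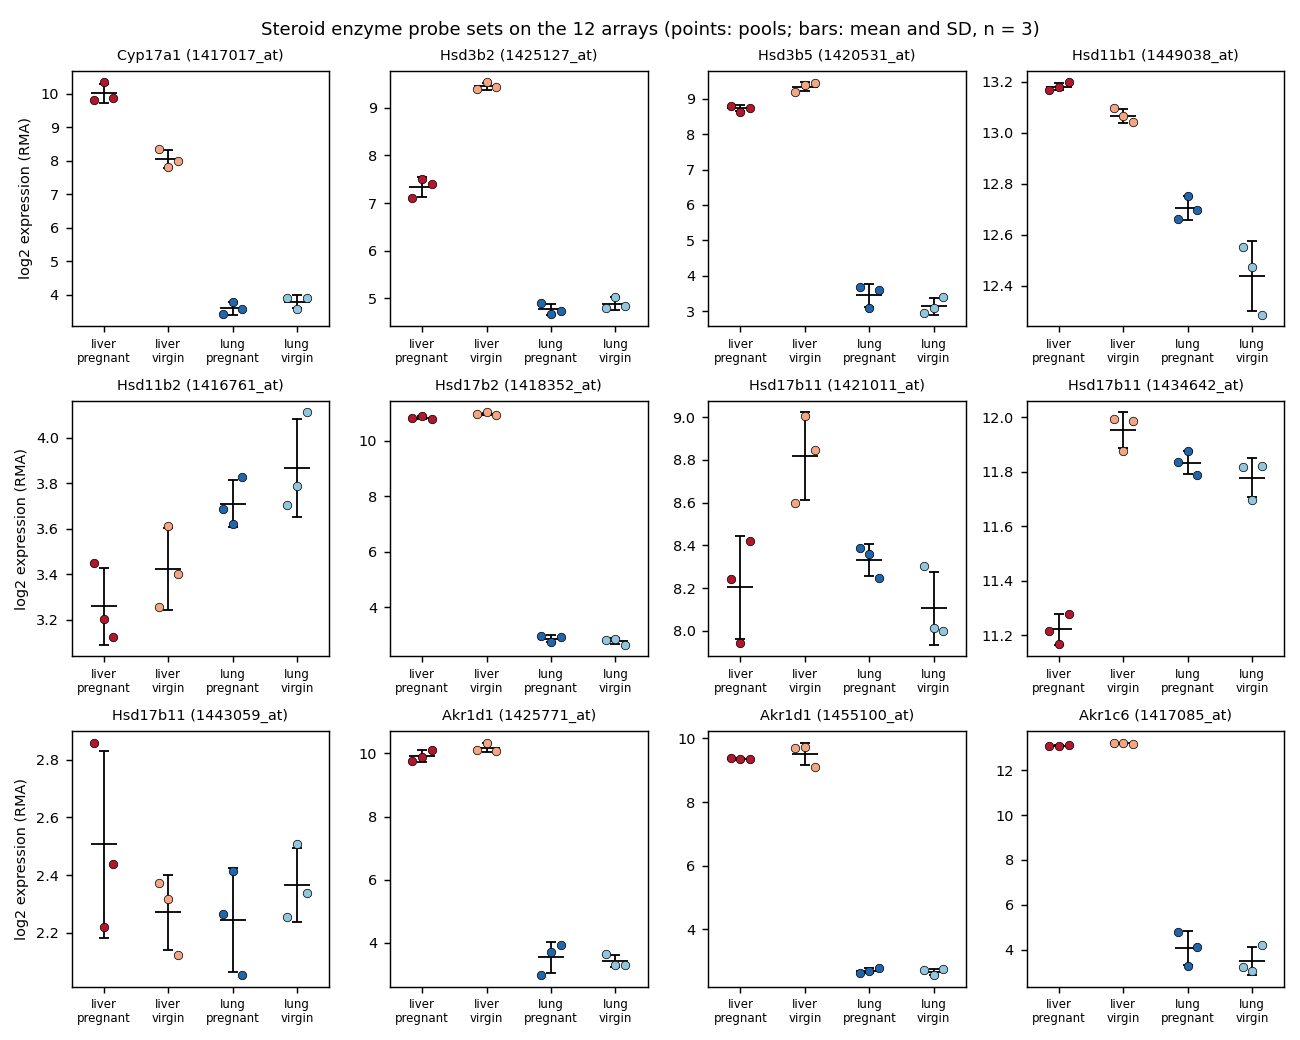
Log2 expression (RMA) of the 12 member probe sets, one panel each with its own vertical axis. Points are the 3 pools of each group and bars the mean and SD. Cyp17a1 stood higher in the 3 pregnant livers than in the 3 virgin livers, Hsd3b2, Hsd3b5 and 2 of the 3 Hsd17b11 probe sets stood lower, and Hsd17b2, Akr1d1 and Akr1c6 were higher in liver than in lung in both states.

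Cyp17a1 encodes the P450 that hydroxylates progesterone and pregnenolone at carbon 17 and cleaves the side chain, the gate to androgens. Its probe set (1417017_at) read 9.82, 10.34 and 9.89 in the pregnant livers, against 8.35, 7.82 and 7.98 in the virgin livers. All 3 pregnant pools lay more than 1 log2 unit above the highest virgin pool. Pregnant liver averaged 10.02 ± 0.285 and virgin liver 8.05 ± 0.275 (SD, n = 3 each), a log2 change of 1.97 ± 0.17 (SE, 95% interval 1.61 to 2.32, limma adjusted p = 1.78e-06). In lung the values were 3.41, 3.77 and 3.57 in pregnant and 3.91, 3.56 and 3.89 in virgin mice. These groups overlapped, at dim levels (change -0.20, interval -0.56 to 0.15, adjusted p = 0.934). The change in liver exceeded that in lung by 2.17 ± 0.23 (SE, adjusted p = 5.79e-05). In virgin mice it was higher in liver than in lung (adjusted p = 4.99e-12); no fold is given against dim values. Of the 4 other steroid-synthesis P450 genes measured, 0 were called in liver by limma and 0 had an unadjusted p under 0.05, which 25.7% of all genes had. Cyp11a1, which makes the first cut in the cholesterol side chain, was dim, at 4.01 in pregnant and 4.27 in virgin liver. Its change was -0.25 (adjusted p = 0.353). Its further probe sets 1448804_at and 1457604_x_at were dim too, at 3.76 and 2.83 in pregnant liver. A lack of calls at dim levels does not show that these genes stayed constant.

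Hsd3b2 showed the most negative change of the set. It belongs to the 3β-hydroxysteroid dehydrogenase family, whose members convert pregnenolone to progesterone and its relatives. Probe set 1425127_at read 7.11, 7.50 and 7.39 in pregnant liver, against 9.39, 9.54 and 9.43 in virgin liver. The highest pregnant pool lay nearly 2 log2 units under the lowest virgin pool. Pregnant liver averaged 7.33 ± 0.203 and virgin liver 9.45 ± 0.0761 (SD, n = 3 each), a log2 change of -2.12 ± 0.12 (SE, interval -2.37 to -1.87, adjusted p = 1.92e-08). In pregnant lung it read 4.90, 4.68 and 4.74, and in virgin lung 4.79, 5.04 and 4.84, with overlapping groups (change -0.12, interval -0.37 to 0.13, adjusted p = 0.966). The difference between the tissue changes was -2.002 ± 0.17 (SE, adjusted p = 3.93e-06). Virgin liver exceeded virgin lung 23.7-fold (adjusted p = 3.5e-14).

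Hsd3b5 is known in mouse liver as a 3-ketosteroid reductase that inactivates steroids and is more abundant in males. It read 8.80, 8.64 and 8.75 in pregnant liver, against 9.20, 9.38 and 9.44 in virgin liver (1420531_at). The groups did not overlap, and the log2 change was -0.61 ± 0.15 (SE, interval -0.94 to -0.28, adjusted p = 0.0229). Leaving out pregnant pool 2, virgin pool 2 or virgin pool 3 ended this call (adjusted p = 0.0761, 0.0719 and 0.0804), as did leaving out both liver pools 3 (0.113). In lung it had 3.69, 3.08 and 3.59 in pregnant and 2.94, 3.09 and 3.41 in virgin mice, overlapping and dim (change 0.31, interval -0.02 to 0.64, adjusted p = 0.734). The test of the difference between the tissue changes gave -0.92 ± 0.22 (SE, adjusted p = 0.0294), of which 0.31 came from the dim lung values. That call was lost without pregnant liver pool 2, virgin liver pool 2 or 3, pregnant lung pool 1 or 3, or virgin lung pool 1 or 2 (adjusted p from 0.0655 to 0.0834), and without both liver pools 3 (0.0942). In virgin mice it was higher in liver than in lung (adjusted p = 2.5e-14).

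Hsd3b2 and Hsd3b5 lie in the Hsd3b gene cluster of chromosome 3, in the order Hsd3b4, Hsd3b5, Hsd3b2, Hsd3b3, Hsd3b6 and Hsd3b1 of the RefSeq annotation. Other probe sets of the family did not pass in liver. A probe set that the annotation assigns jointly to Hsd3b2, Hsd3b3 and Hsd3b6 (1460232_s_at, outside the membership rule and singled out after its values were seen) read 9.81, 9.92 and 10.10 in pregnant liver, against 9.93, 10.01 and 9.96 in virgin liver. Its groups overlapped, with a change of -0.03 (adjusted p = 0.923). Its signal mixes several genes, so it gives no separate level for Hsd3b2, and the sets of such close paralogs are uncertain. Hsd3b3, the next gene in the cluster, had a change of 0.06 (adjusted p = 0.851) on 1427377_x_at and of 0.03 (adjusted p = 0.924) on 1431916_at. Hsd3b1, the adrenal and gonadal form in mice, had a change of -0.41 (adjusted p = 0.257), with overlapping groups. Hsd3b7, which acts in bile acid synthesis, had a change of -0.30 (adjusted p = 0.0805).

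**Figure D2:**
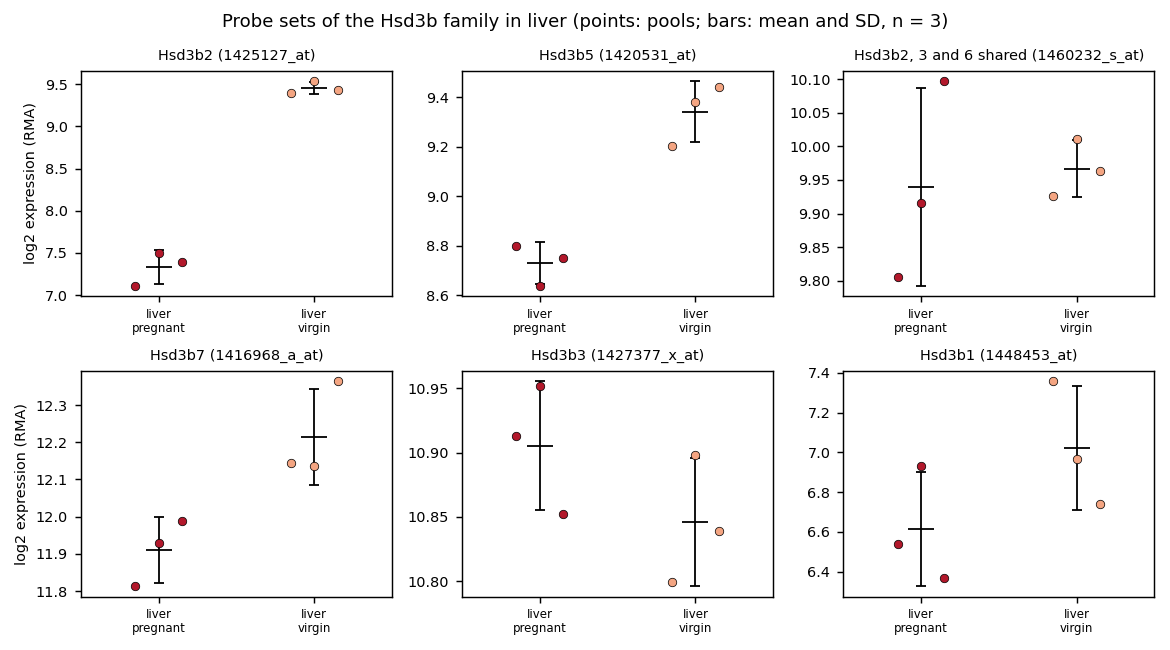
Log2 expression (RMA) in liver of 6 probe sets of the Hsd3b family, one panel each with its own vertical axis; points are the 3 pools of pregnant and of virgin liver and bars the mean and SD. Hsd3b2 and Hsd3b5 were lower in every pregnant pool than in every virgin pool, the shared probe set overlapped between the groups, and Hsd3b3 differed by 0.06.

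Upstream sequence of the genes that fell in liver is shown so that the neighbouring Hsd3b genes can be compared with Hsd17b11. Of the 10 members 7 have an entry in the RefSeq promoter table (build GRCm38.p6). Each line gives the 250 bases before the annotated start of transcription, 5′ to 3′ on the minus strand, at chr3:98724544-98724793 for Hsd3b2, chr3:98645535-98645784 for Hsd3b5 and chr5:104021797-104022046 for Hsd17b11. Capitals mark AGAACA, the half-site bound by glucocorticoid, progesterone and androgen receptors, in Hsd3b2 and the CCAAT box in Hsd17b11.
Hsd3b2: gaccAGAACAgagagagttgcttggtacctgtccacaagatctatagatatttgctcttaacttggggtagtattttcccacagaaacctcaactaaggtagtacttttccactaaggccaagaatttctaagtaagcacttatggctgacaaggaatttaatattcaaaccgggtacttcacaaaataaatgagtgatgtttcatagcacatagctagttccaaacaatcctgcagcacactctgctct
Hsd3b5: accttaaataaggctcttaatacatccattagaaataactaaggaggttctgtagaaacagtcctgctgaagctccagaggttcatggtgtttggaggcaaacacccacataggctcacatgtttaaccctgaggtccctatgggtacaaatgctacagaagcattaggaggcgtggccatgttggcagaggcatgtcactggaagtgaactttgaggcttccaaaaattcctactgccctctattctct
Hsd17b11: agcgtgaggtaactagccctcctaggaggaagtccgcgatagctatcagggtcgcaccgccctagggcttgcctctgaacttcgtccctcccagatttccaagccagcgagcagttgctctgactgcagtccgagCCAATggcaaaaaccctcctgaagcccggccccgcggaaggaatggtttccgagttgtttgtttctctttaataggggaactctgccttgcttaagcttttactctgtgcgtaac
The Hsd3b2 and Hsd3b5 windows were identical at 48.3% of aligned positions, within the 40.9% to 49.3% of the other 20 pairs among the 7 windows. On both strands, 5 motifs were searched, none of which contains another. AGAACA occurred in 1 of 7 member windows (Hsd3b2, starting at position -246) and in 16.1% of all 32851 windows of the same length. CCAAT occurred in 4 of 7, Hsd11b1, Hsd17b11, Srd5a1 and Akr1c6, and in 33.8% of all. AGGTCA, the half-site of many other nuclear receptors, occurred in 1 of 7, Akr1d1, and in 14% of all. TATAAA occurred in 1 of 7, Akr1c6, and in 12.4% of all. The STAT motif TTCNNNGAA occurred in 0 of 7 and in 7.02% of all. These are matches of letters in a short window and say nothing of binding.

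The 11β-hydroxysteroid dehydrogenases set the local level of active glucocorticoid. Hsd11b1, which regenerates corticosterone from its inactive ketone, read 13.17, 13.18 and 13.20 in pregnant liver, against 13.09, 13.07 and 13.04 in virgin liver (1449038_at). The groups did not overlap, but the change of 0.11 (interval -0.09 to 0.31, adjusted p = 0.546) did not pass. In lung it read 12.66, 12.75 and 12.70 in pregnant mice, against 12.55, 12.48 and 12.29 in virgin mice. Every pregnant lung lay above every virgin lung, and the change of 0.26 ± 0.09 (SE, interval 0.07 to 0.46) had an unadjusted p of 0.0128 and an adjusted p of 0.416. Hsd11b1 was 1.55-fold higher in virgin liver than in virgin lung (adjusted p = 3.53e-05). Hsd11b2, which inactivates corticosterone in kidney and other mineralocorticoid targets, was dim in both tissues (1416761_at). It read 3.45, 3.20 and 3.13 in pregnant liver and 3.26, 3.61 and 3.40 in virgin liver, and 3.69, 3.62 and 3.83 in pregnant lung and 3.70, 3.79 and 4.11 in virgin lung. The pregnancy changes were -0.16 in liver (interval -0.45 to 0.12, adjusted p = 0.537) and -0.16 in lung (interval -0.44 to 0.13, adjusted p = 0.938).

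Of the 17β-hydroxysteroid dehydrogenases, Hsd17b2 and Hsd17b11 are described first and Akr1c6 with the aldo-keto reductases. Hsd17b2 oxidises oestradiol and testosterone to weaker ketones. It read 10.83, 10.88 and 10.80 in pregnant liver, against 10.96, 11.02 and 10.93 in virgin liver (1418352_at). These groups did not overlap, and the change of -0.13 (interval -0.34 to 0.07, adjusted p = 0.483) did not pass. Lung levels were 2.96, 2.75 and 2.92 in pregnant and 2.82, 2.87 and 2.65 in virgin mice, all dim and all below virgin liver (adjusted p = 9.22e-18 for virgin liver over virgin lung).

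Hsd17b11 encodes a lipid-droplet dehydrogenase that acts on androstanediol. Its brightest probe set (1434642_at) read 11.22, 11.17 and 11.28 in pregnant liver, against 11.99, 11.88 and 11.99 in virgin liver. The groups stood well apart, with a change of -0.73 ± 0.09 (SE, interval -0.92 to -0.54, adjusted p = 8.63e-05). Both lung groups lay near the virgin livers, at 11.84, 11.88 and 11.79 in pregnant and 11.82, 11.70 and 11.82 in virgin lung (change 0.05, interval -0.14 to 0.25, adjusted p = 0.993). The liver change differed from the lung change by -0.79 ± 0.13 (SE, adjusted p = 0.00214). A second probe set (1421011_at) read 8.24, 7.95 and 8.42 in pregnant liver, against 8.60, 9.01 and 8.85 in virgin liver. It fell by 0.61 ± 0.14 on the log2 scale (SE, adjusted p = 0.0116). The change was -0.71 over pools 1 and 2 alone and -0.43 in pool 3 alone. Leaving out pregnant pool 2 or virgin pool 2 ended that call (adjusted p = 0.0537 and 0.0583). Lung read 8.39, 8.36 and 8.25 in pregnant and 8.30, 8.01 and 8.00 in virgin mice (change 0.23, adjusted p = 0.836). The tissue difference of -0.84 (adjusted p = 0.0262) was lost without pregnant liver pool 2, virgin liver pool 2 or 3, pregnant lung pool 1 or 2, or virgin lung pool 2 or 3 (adjusted p from 0.0571 to 0.0765). The third (1443059_at) stayed at 2.05 to 2.86 on all 12 arrays and had a change of 0.23 in liver (adjusted p = 0.413).

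The aldo-keto reductases of the set reduce steroids. Akr1d1, the 5β-reductase that clears steroid hormones and serves bile acid synthesis, has 2 probe sets. The first (1425771_at) read 9.76, 9.89 and 10.12 in pregnant liver, against 10.12, 10.34 and 10.08 in virgin liver, with a change of -0.26 (interval -0.67 to 0.16, adjusted p = 0.504). The second (1455100_at) read 9.38, 9.34 and 9.35 in pregnant and 9.70, 9.74 and 9.10 in virgin liver, with a change of -0.16 (interval -0.46 to 0.14, adjusted p = 0.59). Both overlapped between the groups, and both differed in sign between the pools: -0.41 and -0.36 over pools 1 and 2 alone, and 0.04 and 0.25 in pool 3 alone. Both were higher in virgin liver than in virgin lung, where they were dim (adjusted p = 1.21e-13 and 2.77e-15). In lung the 2 sets had changes of 0.11 and 0.03 (adjusted p = 0.993 and 0.998).

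Akr1c6, which in mouse liver reduces androstenedione to testosterone, read 13.08, 13.08 and 13.12 in pregnant liver, against 13.23, 13.21 and 13.18 in virgin liver (1417085_at). The groups did not overlap, and the change of -0.11 (interval -0.77 to 0.55, adjusted p = 0.888) did not pass. The wide interval came with a large spread in lung, since the fit pools the spread of all groups. The lung values were 4.79, 3.28 and 4.13 in pregnant and 3.23, 3.04 and 4.20 in virgin mice, and the pregnant lung SD of 0.759 lay at the 99.8th percentile of all probe sets. Its change in lung was 0.57 (interval -0.08 to 1.23, adjusted p = 0.766). The hepatocyte marker mean in pregnant lung was 4.062, 4.052 and 4.511 in pools 1, 2 and 3, and its part in these values was not tested. Akr1c6 was higher in virgin liver than in virgin lung (adjusted p = 4.17e-13), where it was dim.

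In lung 0 of the 12 member probe sets was called by limma, and 1 (Hsd11b1) had an unadjusted p under 0.05, where 0.213% of all probe sets were called and 7.33% had such a p. The groups did not overlap for 1 member, against 15.6% of all probe sets. The median change was 0.0764 over the members and -0.00431 over all probe sets. For the difference between the tissue changes 5 of 12 were called, 1 positive and 4 negative, where 3.42% of all probe sets were called (1.73% positive and 1.7% negative). Of the genes called, Cyp17a1 and Hsd3b5 were dim in lung, and Hsd3b2 read 4.68 to 5.04 there, near the dim cut. A lung change may not show at such levels, so for these genes the test largely repeats the liver call. Both Hsd17b11 probe sets called lay above the cut in lung. In virgin mice 9 of 12 were called higher in liver than in lung and 1 lower, covering all 9 genes. The lower one was Hsd11b2, dim in both, so that no direction is read from it. Of all probe sets 55.9% differed (29.7% higher and 26.2% lower in liver). The Hsd17b11 probe sets disagreed here. Its set 1421011_at was higher in virgin liver by 0.71 (log2, limma adjusted p = 0.000437). Its brightest set, 1434642_at, and the dim 1443059_at were not called (0.17 and -0.10, adjusted p = 0.115 and 0.606). The groups did not overlap for 11 of 12 members and for 63.5% of all.

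**Figure D3:**
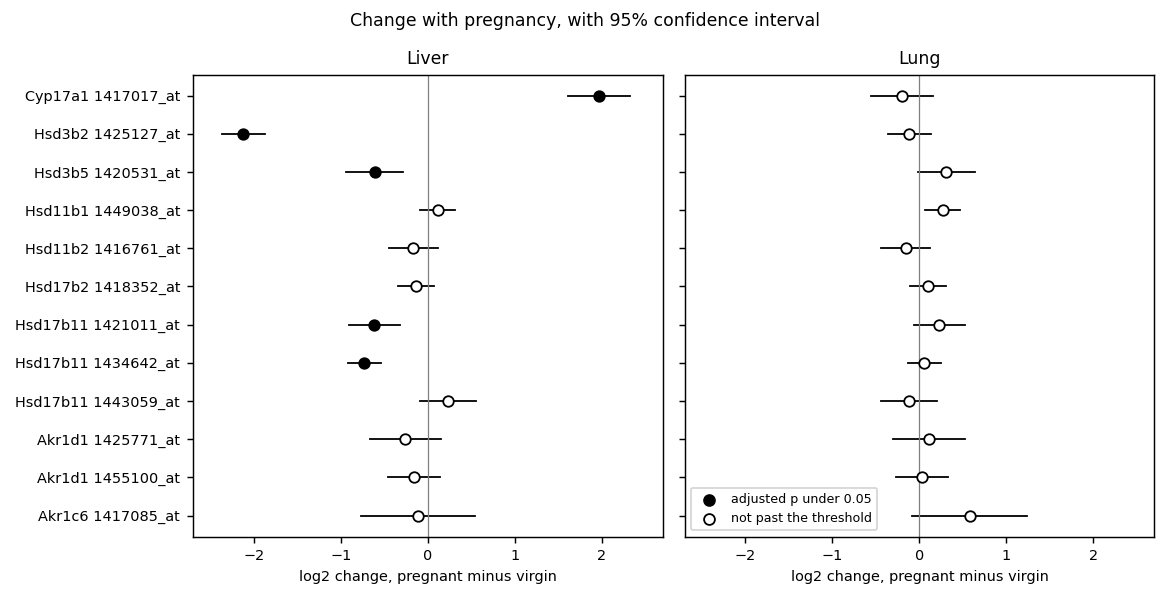
Log2 change with pregnancy (pregnant minus virgin) of the 12 member probe sets in liver on the left and lung on the right. Points are the changes and lines the 95% confidence intervals of the fit over all 12 arrays, and filled points passed the adjusted threshold. The 5 filled points are all in liver, between -2.12 and 1.97, and the lung changes lie between -0.20 and 0.57.

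Other genes of the steroid pathways were taken from 7 lists with 63 genes beside the members, of which 46 were measured. The lists were chosen with earlier results of these data known, so their called shares are a description and no evidence of their own. In liver 3 rose, 11 fell and 32 did not pass, so that 30.4% were called, against 11.1% of all genes at 1 probe set a gene (4.92% up and 6.22% down). The median change was -0.179, against -0.00827 over all genes. In lung 0 of the 46 was called by limma and 9 had an unadjusted p under 0.05, where 0.33% of all genes were called and 9.32% had such a p. The lowest adjusted p there was 0.13, for Serpina6.

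Among cofactors and genes of cholesterol delivery 1 of 7 rose, 3 fell and 3 did not pass. H6pd, which supplies the NADPH that Hsd11b1 uses, read 10.52, 10.53 and 10.74 in pregnant liver, against 9.86, 9.98 and 9.88 in virgin liver. It rose by 0.69 ± 0.10 (log2, SE, adjusted p = 0.000257) with no overlap. Tspo, a cholesterol-binding protein of the outer mitochondrial membrane, changed by -0.63 (adjusted p = 0.000924), and its 2 further probe sets by -0.60 and -0.65 (adjusted p = 0.00701 and 0.00249), the first of these (1438948_x_at) by -0.68 over pools 1 and 2 alone and by -0.44 in pool 3 alone. Fdx1, the electron donor of mitochondrial P450s, changed by -0.42 (adjusted p = 0.0139), or -0.51 over pools 1 and 2 alone and -0.22 in pool 3 alone. Its call was lost without pregnant pool 1, pregnant pool 2 or virgin pool 1 (adjusted p = 0.0509, 0.0584 and 0.0514). Cyb5a and Star were named after their values were seen. Cyb5a, the cytochrome b5 that aids the lyase step of Cyp17a1, changed by -0.32 (adjusted p = 0.0326), or -0.37 and -0.22 over the same pools. Its call was lost without pregnant pool 1 or 2 or any virgin liver pool (adjusted p from 0.0672 to 0.103). Star, which delivers cholesterol to the first enzyme, read 5.73 in pregnant and 5.65 in virgin liver on average (change 0.09, adjusted p = 0.671).

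Among the other 3β- and 17β-hydroxysteroid dehydrogenases the genes that fell included a pair of cholesterol-synthesis enzymes. Nsdhl, which acts on sterols of that pathway, was the 1 of 4 listed 3β genes that passed, with a change of -0.59 (adjusted p = 0.00472). Of 9 measured 17β genes 3 fell, 0 rose and 6 did not pass. Hsd17b7, a 3-ketosteroid reductase of cholesterol synthesis that can also reduce oestrone, read 9.37, 9.47 and 9.18 in pregnant liver, against 10.41, 10.25 and 10.26 in virgin liver. It fell by 0.97 ± 0.11 on the log2 scale (SE, adjusted p = 2.74e-05). Its 3 further probe sets had changes of -1.08, -0.68 and -0.61 (adjusted p = 1.5e-05, 0.0475 and 0.0877). The call at -0.68 (1417871_at) was lost without any single array other than pregnant liver pool 2 and virgin liver pool 3 (adjusted p from 0.0543 to 0.189). Hsd17b13, the lipid-droplet neighbour of Hsd17b11 on chromosome 5, changed by -0.63 (adjusted p = 0.00692), and by -0.30 without passing when its probe sets were averaged (adjusted p = 0.128), the other of which read 3.48 in pregnant and 3.46 in virgin liver. Hsd17b10, a mitochondrial dehydrogenase, changed by -0.47 (adjusted p = 0.0201), or -0.60 over pools 1 and 2 alone and -0.23 in pool 3 alone. Its call was lost without pregnant pool 1, pregnant pool 2 or virgin pool 2 (adjusted p = 0.063, 0.0767 and 0.0879), and its further probe set changed by -0.39 (0.0235), or -0.47 and -0.22 over the same pools. That call was lost without pregnant pool 1 or 2 or virgin pool 1 or 2 (0.056 to 0.0936).

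Among the other steroid reductases and keto-reductases 1 of 9 rose, 2 fell and 6 did not pass. Akr1c18, the 20α-hydroxysteroid dehydrogenase that inactivates progesterone, read 6.64, 6.97 and 7.03 in pregnant liver, against 5.35, 5.87 and 5.65 in virgin liver. The groups did not overlap, and it rose 2.39-fold (log2 1.26 ± 0.15, SE, adjusted p = 6.8e-05). The aldo-keto reductase family members Akr1c19 and Akr1c13 changed by -0.65 and -0.45 (adjusted p = 0.0445 and 0.021). For Akr1c19 the change was -0.90 over pools 1 and 2 alone against -0.15 in pool 3 alone, and its call was lost without any single liver array other than virgin pool 3 (adjusted p from 0.0773 to 0.181) and without pregnant lung pool 2 or 3 or virgin lung pool 2 or 3. For Akr1c13 it was -0.52 and -0.32, and the call was lost without pregnant pool 1 or 2 or virgin pool 1 or 2 (adjusted p from 0.0535 to 0.0859). None of the 5 measured genes of steroid sulfation and desulfation was called, and 2 had an unadjusted p under 0.05 (limma). Sult2a2, a hydroxysteroid sulfotransferase, had a change of -0.28 (adjusted p = 0.167).

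Among steroid receptors and plasma carriers 1 of 8 rose, 2 fell and 5 did not pass. Serpina6, which encodes corticosteroid-binding globulin, the plasma carrier of glucocorticoids and progesterone, read 14.02, 14.02 and 14.03 in pregnant liver, against 11.48, 11.76 and 11.56 in virgin liver. It rose 5.37-fold (log2 2.42 ± 0.18, SE, adjusted p = 3.56e-07). The highest value of any probe set on the pregnant liver arrays was 14.52 to 14.55, so these levels lay near the top of the scale. Whether this compressed the fold was not tested. In lung Serpina6 read 2.72, 3.10 and 3.68 in pregnant and 2.35, 2.46 and 2.52 in virgin mice, all dim and without overlap (change 0.73, adjusted p = 0.13). With pregnant lung pool 1 left out, 1 of the 8 genes of this list was called in lung. The hepatocyte marker mean was highest in pregnant lung pool 3, at 4.511, and its part was not tested. Nr3c1, the glucocorticoid receptor gene, read 8.61, 8.56 and 8.50 in pregnant liver, against 9.02, 8.95 and 8.82 in virgin liver, a change of -0.37 (adjusted p = 0.0248). Further Nr3c1 probe sets also fell, 1421867_at by 0.47 and 1457635_s_at by 0.58 on the log2 scale (adjusted p = 0.00487 and 0.0415). The first was -0.57 over pools 1 and 2 alone and -0.28 in pool 3 alone. The call of the second was lost without any single array except virgin liver pool 3 and pregnant lung pools 2 and 3 (adjusted p from 0.0525 to 0.168). The other 3 did not pass. Nr3c2, the mineralocorticoid receptor gene, changed by -0.49 (adjusted p = 0.0255), or -0.42 over pools 1 and 2 alone and -0.64 in pool 3 alone. Without both liver pools 3 the calls of Nr3c1 and Nr3c2 were lost (adjusted p = 0.0516 and 0.14). The Nr3c1 call was also lost without pregnant pool 2 or 3 or virgin pool 1 or 2 (0.0585 to 0.0952), and the Nr3c2 call without pregnant pool 1 or 3 or virgin pool 1 or 3 (0.0667 to 0.0943).

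**Figure D4:**
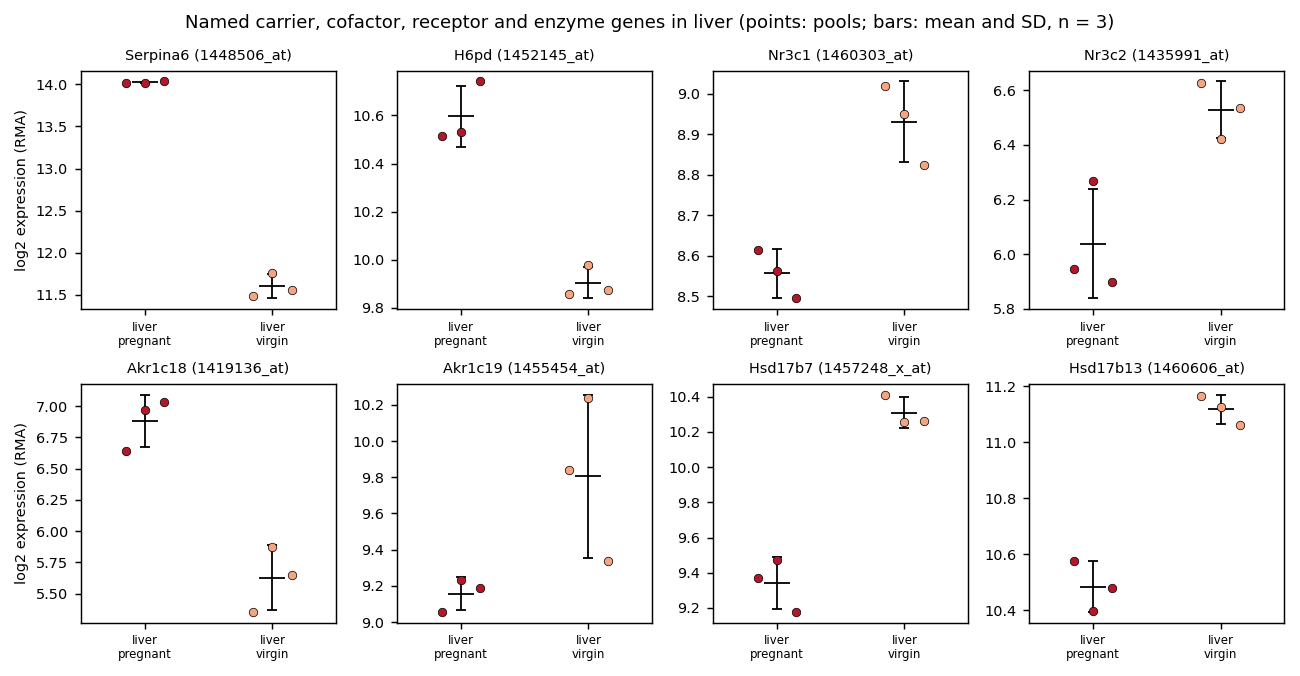
Log2 expression (RMA) in liver of 8 carrier, cofactor, receptor and enzyme genes, one panel each with its own vertical axis; points are the 3 pools of pregnant and of virgin liver and bars the mean and SD. Serpina6, H6pd and Akr1c18 were higher in every pregnant pool than in every virgin pool, and the other 5 genes were lower.

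Genes known for sex-biased levels in mouse liver were taken as 2 further lists, one of which holds Hsd3b5 and the other Cyp17a1. Genes of both lists moved in both directions. Without Hsd3b5, 2 of 14 male-biased genes rose, 2 fell and 10 did not pass, so that 28.6% were called. Cyp7b1, an oxysterol and steroid hydroxylase, rose by 0.81 ± 0.14 (log2, SE, adjusted p = 0.00199), and its probe set 1421075_s_at by 0.92 (adjusted p = 0.00116). Gstp1, a glutathione transferase, rose by 0.63 (adjusted p = 0.000355). Cyp2d9, a testosterone hydroxylase, changed by -0.62 (adjusted p = 0.0446), a call lost without any single liver array except pregnant pool 1 (adjusted p from 0.0616 to 0.172) and any single lung array among virgin pools 1, 2 and 3 and pregnant pool 2 (0.0516 to 0.0608). The fourth, Ugt2b38, named after its values were seen, had a change of -0.58 (adjusted p = 0.0256) at dim levels of 3.32 in pregnant and 3.90 in virgin liver. Without pregnant pool 1, pregnant pool 3 or virgin pool 1 its call was lost (adjusted p = 0.0674, 0.0892 and 0.112), and without virgin pool 2 its adjusted p was 0.05. Without Cyp17a1, 1 of 16 female-biased genes rose, 4 fell and 11 did not pass, so that 31.2% were called. Over all genes 11.1% were called. These lists too were chosen with earlier results of these data known, so the shares are a description only. Cyp3a16, a steroid-hydroxylating P450, read 10.42, 10.20 and 10.27 in pregnant liver, against 8.75, 8.85 and 8.37 in virgin liver. It rose 3.11-fold (log2 1.64 ± 0.15, SE, adjusted p = 4.23e-06). Cyp2b13, another P450, read 9.68, 8.98 and 10.14 in pregnant liver, against 11.21, 11.11 and 11.35 in virgin liver, and was 3.08-fold lower in pregnant liver (adjusted p = 0.000633). Over pools 1 and 2 alone it changed by -1.83, and in pool 3 alone by -1.20. The other 3 that fell, named after their values were seen, were Cyp2b10 (-1.17), Slc22a26 (-1.04) and Slc22a27 (-0.87). Cyp2b10 changed by -0.96 in pools 1 and 2 against -1.58 in pool 3, and Slc22a26 by -1.18 against -0.76. The Slc22a27 call was lost without pregnant pool 1, pregnant pool 3 or virgin pool 2 (adjusted p = 0.0557, 0.0581 and 0.0982). Without both liver pools 3 the calls of Slc22a27, Ugt2b38 and Cyp2d9 were lost (limma adjusted p = 0.0564, 0.0738 and 0.113). The median change was -0.112 over the 14 male-biased and -0.253 over the 16 female-biased genes, against -0.00827 over all genes.

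**Figure D5:**
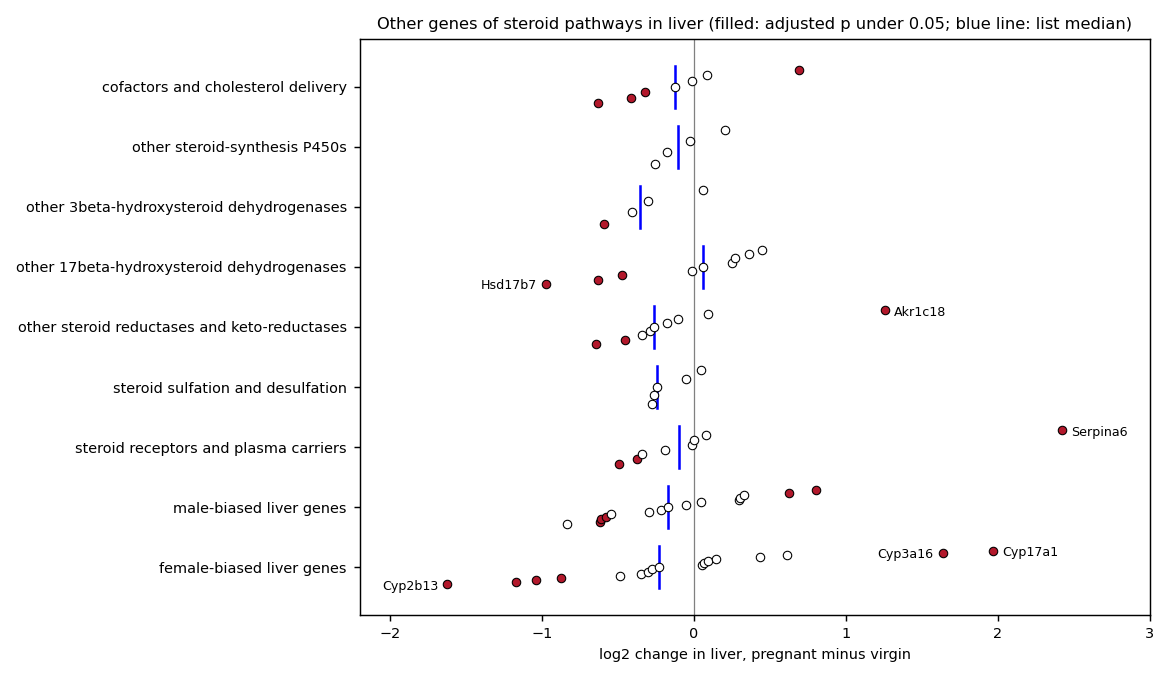
Log2 change in liver (pregnant minus virgin, horizontal axis) of the measured genes of the 7 pathway lists and the 2 sex-biased lists, one row a list. Each point is a gene, filled points passed the adjusted threshold, and the blue line is the list median; here the sex-biased lists include Hsd3b5 and Cyp17a1. Serpina6 (2.42), Cyp17a1 (1.97), Cyp3a16 (1.64) and Akr1c18 (1.26) lie far to the right and Cyp2b13 (-1.62) far to the left.

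The genes whose profile over the 12 arrays was most like that of Hsd3b2 were Cnmd, Nudt7 and Elovl6, with root mean square differences of 0.204, 0.23 and 0.253 log2 units after each profile's own mean was taken off. Their liver changes were -1.757, -1.915 and -1.771. For Cyp17a1 they were Aldh1b1, Nlrp12 and Eci3, with differences of 0.386, 0.439 and 0.462 and liver changes of 1.6, 1.645 and 2.083. All were picked by likeness over these same arrays, in which the gap between liver and lung also counts. Similar liver changes thus largely follow from the choice and are no evidence of their own.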

How the data were processed

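The 12 samples, 3 each of pregnant and virgin liver and lung, were hybridised to one-colour Affymetrix mouse arrays. Per the labels' protocols, tissue was ground in liquid nitrogen and RNA was extracted on columns, with equal RNA of 2 mice pooled per array. The deposited log2 values were made by the authors with RMA, which corrects background, normalizes and summarises probe sets, per the submitters' processing notes. Versions, and which arrays were normalized together, are not given in the sources used here.

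After removal of 64 controls, 45037 probe sets remained. The platform annotation gave 1 symbol for 34945, several for 932 and none for 9160. All of them were fitted together, with 4 group means, in limma 3.58.1 in R 4.3.3 (8 residual and 6.6 prior degrees of freedom). A call means a p under 0.05 after Benjamini-Hochberg adjustment over all probe sets, and no filter on dim probe sets was used. Steps were tested on simulated data. The number of arrays limits the precision.

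Members, lists and tests were chosen with earlier results of these data known. All member probe sets are named. Of each pathway list, at the probe set with the highest mean for a gene, up to 3 called genes with the largest change per tissue are named, or, with no call, the gene of lowest p. In lung these last were Cyb5b (change -0.12), Cyp21a1 (-0.15), Hsd3b3 (-0.35), Hsd17b12 (-0.23), Akr1c19 (-0.67), Papss2 (-0.30), Serpina6 (0.73), Susd4 (-0.43) and Prom1 (-0.48), with adjusted p from 0.13 to 0.94. The mean of 7 placenta and decidua markers was 3.897 to 4.135 in pregnant and 3.119 to 3.267 in virgin lung (2 rose). Alternatives changed the arrays fitted, probe set choice, scaling, variance model, blocks and threshold, and left out each array.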

Additional observations from a re-analysis of the deposited data

Results flagged for a closer look

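The change with pregnancy differed between liver and lung for 14 of 30 probe sets considered, of 13 genes, by the test of the difference itself (limma adjusted p under 0.05), where 3.42% of all probe sets were called. The 30 were the 12 member probe sets and list genes named because they were called in liver, so the count is a description and no evidence of its own. Of 8 further probe sets of these genes 4 were also called. The value is the liver change minus the lung change on the log2 scale. Positive differences were 2.17 for Cyp17a1, 1.695 for Serpina6, 1.481 for Cyp3a16, 1.384 for Akr1c18, 1.106 for Cyp7b1, 0.7166 for Gstp1 and 0.6846 for H6pd. The difference for Serpina6 takes in a lung change of 0.7293 at dim levels. Lung levels were also dim for Cyp17a1 and Hsd3b5 and near the dim cut for Hsd3b2, so their differences largely restate the liver changes. Negative differences were -2.002 for Hsd3b2, -0.9209 for Hsd3b5, -0.8401 and -0.7853 for the Hsd17b11 probe sets 1421011_at and 1434642_at, -0.8218 for Hsd17b7, -0.7325 for Hsd17b13 and -0.6802 for Tspo. The adjusted p ran from 3.93e-06 for Hsd3b2 to 0.0437 for Hsd17b13. The other 7 member probe sets did not pass (adjusted p from 0.479 to 0.992). With 3 arrays a group, single arrays far from the others were not tested for.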

How the results depend on the processing

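Cyp17a1, Hsd3b2 and the brightest Hsd17b11 probe set passed in liver in each of 25 alternative fits, with highest adjusted p of 0.000123, 9.01e-06 and 0.0161. Their changes ran from 1.805 to 2.12, from -2.203 to -1.991 and from -0.7683 to -0.3698, the last at the mean of its 3 probe sets. Hsd3b5 passed in 20 of 25, with array weights (adjusted p = 0.0683) among the losses. The second Hsd17b11 set was also lost with only the 6 liver arrays (0.0535). With 1 array left out, 3 to 5 members were called in liver, 0 in lung, 3 to 5 for the difference between tissues and 9 to 10 between virgin tissues. An adjusted p under 0.01 left 3 in liver and 3 for the difference, and averaging each gene's probe sets left 3 for the difference. The lung change of Akr1d1, 0.11, ran from -0.0785 without lung pregnant pool 3 to 0.3903 without lung pregnant pool 1, and none passed; the cause was not tested. Of the list genes Akr1c19 lost its call in 14 of 25 fits, Cyp2d9 in 14 of 24, Nr3c1 in 9, Nr3c2 in 8, Akr1c13 in 6, Fdx1 and Hsd17b10 in 4 each and Hsd17b13 in 1. Pool numbers were checked for pairing of pregnant with virgin pools within each tissue only. Deviations of same-numbered pools correlated at -0.0832 to 0.114 in liver and -0.0143 to 0.0725 in lung, so they were not taken as pairs. Whether a liver pool and a lung pool came from the same mice was not checked. In the main fit the tests between tissues took all arrays as independent. With the replicate block 5 members were called in liver, 0 in lung and 4 for the difference, where 1421011_at was lost (adjusted p = 0.0518). Of 6 liver arrays 3 correlated best with their own number, and of 6 lung arrays 2. Over all probe sets 3675 were called in liver, 96 in lung, 1542 for the difference and 25158 between virgin tissues. In liver 2025 were called with the liver arrays alone, 2211 with the mean of probe sets, 2449 without shared-sequence probe sets and 1826 under 0.01. In lung 250 were called with a variance trend, 366 with array weights, 27 under 0.01 and 34 to 48 without virgin pool 2, virgin pool 3, pregnant pool 1 or pregnant pool 2. For the difference 1007 and 748 were called without shared-sequence sets and under 0.01, and between virgin tissues 12501 and 12292 at gene level. Values within liver pool 3, chosen after seeing the data like the fits of later-named genes with arrays left out, were 0.1572 for Hsd11b1, 0.04157 for Akr1d1 and -0.0526 for Akr1c6. Dim members (Hsd11b2, 1443059_at and the lung levels of Cyp17a1, Hsd3b5, Hsd17b2, Akr1d1 and most of Akr1c6) were so dim that signal over background was not established.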
